A study of Mus musculus with 4 samples.

Results

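A set of 10 genes that encode sensors of foreign or misplaced nucleic acids, or their direct partners, was followed across the cells of mouse melanomas: Ddx58, Ifih1, Dhx58, Mavs, Tlr3, Tlr7, Zbp1, Eif2ak2, Aim2 and Ifi204. They were taken as a list of named genes of these pathways, and all 10 were among the 12584 genes of the count table. CD45+ live cells were sorted from YUMM1.7-OVA RTT tumours, which derive from a Braf-mutant mouse melanoma line without Cdkn2a that expresses ovalbumin and no longer responds to targeted drugs, and were profiled with a probe-based single-cell assay (Chromium Flex). All tumours grew in Rag2-/- mice of 6 to 12 weeks, which form no T or B cells of their own, and all mice received ovalbumin-specific OT-1 CD8+ T cells (adoptive cell transfer, ACT) on day 7; tumours were taken on day 10, 72 h later. The 4 groups were CTRL (RTT mCherry tumour cells, the control vector line), IRF3/7 (RTT tumour cells that overexpress both interferon regulatory factors), COX2i (RTT mCherry tumours treated with celecoxib, which blocks the prostaglandin-producing enzyme COX2) and COX2i + 5-AZA (the same with 5-azacytidine, an inhibitor of DNA methyltransferases, added). The overexpressing cells were a sorted bulk population rather than a clone, and IRF3 and IRF7 were driven from a viral (SFFV) promoter in the tumour cells only. Each group was 1 library made from 3 pooled tumours, so no comparison between groups has a replicate check and no p-value is given; intervals are exact 95% intervals that cover counting error only.

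Cells detect viral or misplaced RNA and DNA through receptors in the cytosol and in endosomes, and most of these receptors end in the production of type I interferon. RIG-I (Ddx58) and MDA5 (Ifih1) are cytosolic RNA helicases that bind short end-modified and long base-paired RNA, respectively, LGP2 (Dhx58) is a relative without the signalling domain that modulates both, and MAVS is the mitochondrial adaptor through which RIG-I and MDA5 signal. TLR3 and TLR7 read base-paired and uridine-rich RNA inside endosomes, ZBP1 binds Z-form nucleic acids and can start necroptosis through RIPK3, PKR (Eif2ak2) stops translation when it meets base-paired RNA, AIM2 assembles an inflammasome on cytosolic DNA, and Ifi204 is a mouse PYHIN-family DNA sensor that feeds into STING. Several of these genes are themselves induced by interferon, whereas Mavs is generally regarded as a constitutive gene.

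In GENCODE M21 (GRCm38) the RIG-I-like receptor genes and their adaptor lie on separate chromosomes or far apart: Ddx58 (ENSMUSG00000040296) at chr4:40203773-40239828, minus strand, Ifih1 (ENSMUSG00000026896) at chr2:62595798-62646255, minus strand, Dhx58 (ENSMUSG00000017830) at chr11:100694884-100704271, minus strand, and Mavs (ENSMUSG00000037523) at chr2:131234063-131248025, plus strand. The endosomal receptors are Tlr3 (ENSMUSG00000031639) at chr8:45395665-45411080, minus strand, and Tlr7 (ENSMUSG00000044583) at chrX:167304929-167330558, minus strand. The remaining members are Zbp1 (ENSMUSG00000027514) at chr2:173206612-173218923, minus strand; Eif2ak2 (ENSMUSG00000024079) at chr17:78852564-78882573, minus strand; and the PYHIN genes Aim2 (ENSMUSG00000037860) at chr1:173350879-173466040, plus strand, and Ifi204 (ENSMUSG00000073489) at chr1:173747293-173766943, minus strand, whose annotated ends are 281253 bases apart. All 10 are annotated as protein-coding, and Ifi204 has close relatives in the same cluster, so that its UMIs are uncertain where a probe could bind a relative.

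Promoter windows (RefSeq, GRCm38.p6; 250 bases before to 50 bases after the gene start) were held for 6 of the 10 members, namely Ddx58, Ifih1, Mavs, Tlr3, Aim2 and Eif2ak2. They were searched on both strands for a simple form of the interferon-stimulated response element, the sequence bound by interferon-activated factors, spelled GAAANNGAAA, or TTTCNNTTTC on the opposite strand. It occurred in 3 of the 6 windows, Ddx58, Ifih1 and Eif2ak2, and in 3.44% of the 32851 windows of all genes. The match lay at bases 3 to 12 after the start in Ddx58, 33 to 42 in Ifih1 and 19 to 28 in Eif2ak2, counting the start as base 1. A gamma-activated site, TTCNNNGAA, which reads the same on both strands, occurred in Eif2ak2 alone of the 6 windows, at bases -178 to -170, and in 8.30% of all windows. These letters describe the windows and say nothing about binding, and their absence from the Mavs, Tlr3 and Aim2 windows covers these 300 bases and this spelling only. The windows of the 3 members that hold the element, and of Mavs, which lacks it, are shown 5′ to 3′ along the gene with the element in capitals.
Ddx58 (chr4:40239776-40240075, minus strand): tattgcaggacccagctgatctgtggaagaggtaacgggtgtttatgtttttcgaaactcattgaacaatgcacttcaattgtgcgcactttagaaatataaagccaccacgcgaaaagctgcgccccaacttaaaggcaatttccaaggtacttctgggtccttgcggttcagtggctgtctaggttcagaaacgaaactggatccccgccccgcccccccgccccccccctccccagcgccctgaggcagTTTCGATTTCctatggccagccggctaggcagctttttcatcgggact
Ifih1 (chr2:62646206-62646505, minus strand): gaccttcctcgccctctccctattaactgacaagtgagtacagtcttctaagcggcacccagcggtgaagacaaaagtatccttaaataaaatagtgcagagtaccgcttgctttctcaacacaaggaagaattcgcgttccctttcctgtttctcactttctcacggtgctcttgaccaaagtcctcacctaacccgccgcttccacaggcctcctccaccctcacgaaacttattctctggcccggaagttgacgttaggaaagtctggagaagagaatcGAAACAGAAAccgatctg
Eif2ak2 (chr17:78882523-78882822, minus strand): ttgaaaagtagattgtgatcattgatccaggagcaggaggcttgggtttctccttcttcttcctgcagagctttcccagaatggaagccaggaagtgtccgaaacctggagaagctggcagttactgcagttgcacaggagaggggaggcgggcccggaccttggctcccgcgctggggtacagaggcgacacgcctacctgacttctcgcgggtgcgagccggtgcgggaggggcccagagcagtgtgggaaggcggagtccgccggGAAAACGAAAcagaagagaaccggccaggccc
Mavs (chr2:131233813-131234112, plus strand): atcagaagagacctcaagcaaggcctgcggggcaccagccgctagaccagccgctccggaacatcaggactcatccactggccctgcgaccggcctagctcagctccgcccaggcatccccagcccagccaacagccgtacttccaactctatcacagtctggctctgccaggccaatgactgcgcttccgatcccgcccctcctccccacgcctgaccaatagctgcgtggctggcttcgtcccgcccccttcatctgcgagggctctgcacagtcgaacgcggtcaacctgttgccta

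The table held 34447 cells, 6329 to 10032 per library, with 26356819 to 78722763 UMIs in total and a median of 3168 to 7502 UMIs per cell; IRF3/7 was the shallowest library on both measures. No full cell barcode was found in more than 1 library, whereas 4830 of 29259 gel bead barcodes were shared between libraries, which were told apart by probe barcodes. Cell classes are those the authors deposited, from clusters in which every gene of the table could take part, so a difference between classes is a description. Monocyte and macrophage classes together made up 79.6% to 87.7% of cells in each library. Inflammatory monocytes (Infl_Mono) numbered 93 in CTRL, 4335 in IRF3/7, 130 in COX2i and 764 in COX2i + 5-AZA, so the compartments hold different cells. The targeted genes were checked first: Irf3 stood at 584 counts per 1000000 UMIs (CPM) in the Myofibrobl class of IRF3/7 against 31.2 CPM in CTRL, and Irf7 at 14909.5 against 8.20 CPM, whereas in monocytes and macrophages Irf3 stood at 44.6 against 43.0 CPM and Irf7, itself an interferon-induced gene, at 3170.3 against 69.3 CPM. Myofibrobl is a class of non-immune cells left after the sort, with collagen genes high (Col1a2 at 1983 to 9669 CPM) and the leukocyte gene Ptprc at 18.3 to 37.4 CPM; tumour and stromal cells within it were not separated.

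The first comparison asks how the sensors stand in the immune infiltrate of tumours whose cancer cells overexpress IRF3 and IRF7. In all monocytes and macrophages, 7 of the 10 members were at least 2-fold higher in IRF3/7 than in CTRL and 1 was at least 2-fold lower, where 9.16% of all genes tested were as much higher and 32.2% as much lower. Over all cells the count was 7 higher, against 10.8% of genes. With the class mix of both libraries held the same, the count was 1 in monocytes and macrophages, where Infl_Mono alone is left, and 1 over all cells, where Infl_Mono, cDC2 and Myofibrobl are. The median log2 ratio of the members in monocytes and macrophages was 2.34, beside -0.55 for all genes tested.

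Both RIG-I-like receptors and LGP2 were higher. Ddx58 in monocytes and macrophages stood at 29.3 CPM in CTRL, 239 in IRF3/7, 33.5 in COX2i and 54.6 in COX2i + 5-AZA. The IRF3/7 library was 8.16-fold above CTRL, a log2 ratio of 3.03 (95% interval 2.95 to 3.11). Ifih1 stood at 50.5 CPM in CTRL, 602 in IRF3/7, 55.2 in COX2i and 101 in COX2i + 5-AZA. Its log2 ratio of IRF3/7 over CTRL, 3.58 (95% interval 3.52 to 3.64), was the second highest of the members. Dhx58 stood at 57.8 CPM in CTRL, 410.5 in IRF3/7, 69.8 in COX2i and 160.3 in COX2i + 5-AZA. For Dhx58 the log2 ratio was 2.83 (95% interval 2.77 to 2.89), and COX2i + 5-AZA lay between CTRL and IRF3/7, as it did for Ddx58 and Ifih1. Mavs, the shared adaptor, ran the other way, at 53.3 CPM in CTRL, 22.6 in IRF3/7, 50.9 in COX2i and 39.5 in COX2i + 5-AZA. Its log2 ratio of IRF3/7 over CTRL was -1.24 (95% interval -1.39 to -1.09), and -0.70 after the shift of the median gene was taken off.

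The endosomal receptors differed from each other. Tlr3 stood at 20.0 CPM in CTRL, 71.0 in IRF3/7, 19.9 in COX2i and 29.7 in COX2i + 5-AZA in monocytes and macrophages. Its log2 ratio of IRF3/7 over CTRL was 1.83 (95% interval 1.71 to 1.95). Tlr7 stood at 133 CPM in CTRL, 174 in IRF3/7, 94.7 in COX2i and 77.7 in COX2i + 5-AZA. Its log2 ratio of IRF3/7 over CTRL stayed under 1, at 0.38 (95% interval 0.32 to 0.45), and its level was lowest in COX2i + 5-AZA. The other cytosolic sensors included the members with the highest and with nearly flat values. Zbp1 stood at 60.3 CPM in CTRL, 1423 in IRF3/7, 124 in COX2i and 441 in COX2i + 5-AZA. This 23.6-fold difference between IRF3/7 and CTRL, a log2 ratio of 4.56 (95% interval 4.51 to 4.61), was the largest of the 10, and Zbp1 was the member that stood above CTRL in every other library by at least 2-fold. Ifi204 stood at 85.5 CPM in CTRL, 775 in IRF3/7, 74.3 in COX2i and 253 in COX2i + 5-AZA, with a log2 ratio of 3.18 (95% interval 3.13 to 3.23) for IRF3/7. Eif2ak2 stood at 60.2 CPM in CTRL, 218 in IRF3/7, 65.0 in COX2i and 84.2 in COX2i + 5-AZA, with a log2 ratio of 1.86 (95% interval 1.79 to 1.92). Aim2 ranged from 48.2 to 49.2 CPM in 3 libraries and reached 74.9 CPM in IRF3/7, a log2 ratio of 0.63 (95% interval 0.53 to 0.72), below 2-fold.

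**Figure D1:**
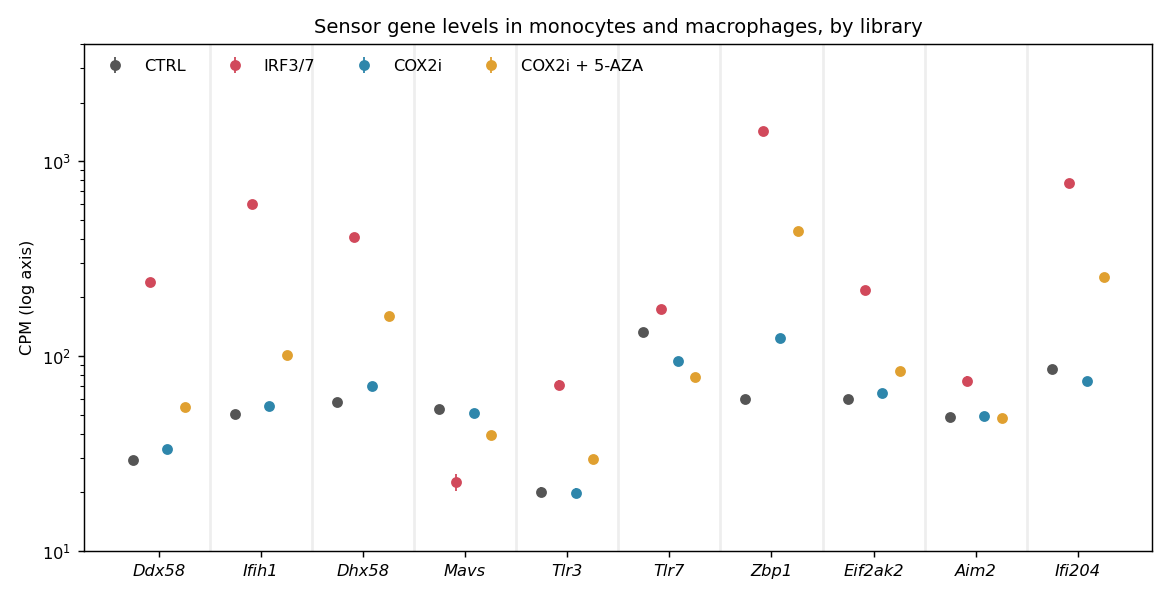
CPM (log axis) of the 10 sensor genes in monocytes and macrophages; each point is 1 library and bars are exact 95% Poisson intervals, mostly smaller than the points. IRF3/7 stands highest for 9 genes and lowest for Mavs, at 22.6 CPM, and COX2i + 5-AZA is second highest for 7 genes.

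The compartment values hold very different mixes of cells, and the difference within a single class was much smaller. Infl_Mono was the only monocyte or macrophage class with at least 50 cells in both IRF3/7 and CTRL (4335 and 93 cells). There 1 of the 10 members, Zbp1, was at least 2-fold higher (background 6.17%), and 1, Tlr3, at least 2-fold lower (background 19.4%). Ddx58 in Infl_Mono stood at 302 CPM (95% interval 255 to 355) in CTRL and 250.1 CPM (95% interval 242 to 258) in IRF3/7, so the CTRL value was the higher, by about as much as for the median gene. The log2 ratios were -0.27 (95% interval -0.51 to -0.02) for Ddx58, 0.28 for Ifih1, 0.25 for Dhx58, 0.20 for Ifi204 and 0.09 for Eif2ak2. Tlr7 stood at 246 CPM (95% interval 204 to 294) in CTRL and 168 CPM (95% interval 161 to 175) in IRF3/7, a log2 ratio of -0.55 (95% interval -0.82 to -0.27), and the log2 ratios of Mavs and Aim2 were -0.43 (95% interval -1.26 to 0.54) and -0.38 (95% interval -0.79 to 0.06). The ratios of Ddx58, Tlr3, Tlr7 and Aim2 in this class had the opposite sign to those over all monocytes and macrophages. Tlr3 in Infl_Mono stood at 149 CPM (95% interval 116 to 187) in CTRL and 69.3 CPM (95% interval 65.1 to 73.6) in IRF3/7, a log2 ratio of -1.10 (95% interval -1.45 to -0.74). Zbp1 in the same class stood at 615 CPM in CTRL, 1498 in IRF3/7, 1041 in COX2i and 1125 in COX2i + 5-AZA, and its log2 ratio was 1.28 (95% interval 1.12 to 1.45). Median log2 ratios in this class were -0.09 for the members and -0.23 for all genes tested. The Infl_Mono cells of the libraries were not alike in other markers. The summed CPM of the macrophage markers C1qa, C1qb, Mrc1 and Apoe was 47852 in CTRL against 8892 in IRF3/7. The monocyte gene Plac8 stood at 1931 against 7938 CPM. The summed neutrophil markers S100a8, S100a9, Cxcr2 and Csf3r went from 304 to 1389 CPM and the fibroblast markers from 147 to 25.3. The summed cDC2 markers went from 244 to 1799 CPM, of which H2-Eb1 held 233 and 1777. The other cDC2 markers, Klrb1b and Cd209a, went from 10.3 to 21.4 and from 0 to 0.68 CPM. The part of these markers in the values was not tested.

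**Figure D2:**
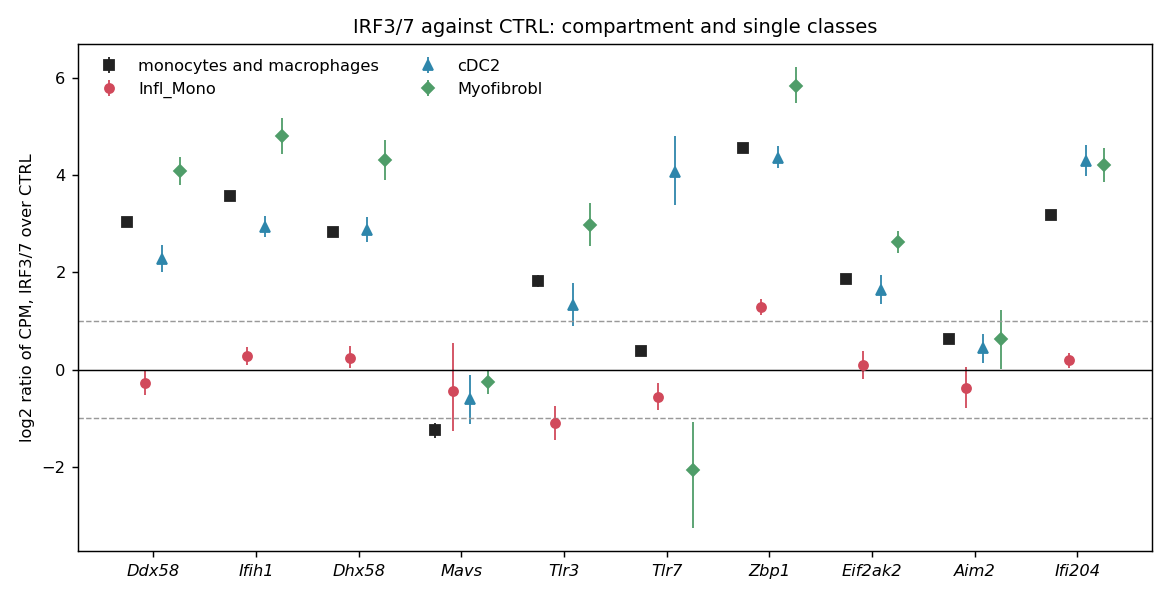
log2 ratio of CPM, IRF3/7 over CTRL, for each sensor gene in monocytes and macrophages together (squares), Infl_Mono (circles), cDC2 (triangles) and Myofibrobl (diamonds); bars are exact 95% counting intervals and dashed lines mark 2-fold. Infl_Mono lies within 2-fold for 8 genes, while cDC2 and Myofibrobl reach 4.36 and 5.84 for Zbp1.

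Levels were next set in order by class, within 1 gene at a time. Infl_Mono stood highest for 7 members (Ddx58, Ifih1, Dhx58, Tlr7, Zbp1, Eif2ak2 and Ifi204) when UMIs were summed over libraries, and it was also highest for these members when each library weighed the same and in CTRL alone. In IRF3/7 alone another class stood highest for 3 of the 7. Tlr7 stood there at 248 CPM (95% interval 226 to 270.3) in TAM_H2Ab1 and 168 CPM (95% interval 161 to 175) in Infl_Mono, Ddx58 at 273 CPM in cDC2 and 250.1 in Infl_Mono, and Dhx58 at 419 and 418 CPM in the same classes; the intervals overlapped for Ddx58 and Dhx58 and not for Tlr7. In COX2i + 5-AZA alone Tlr7 stood at 121 CPM in Monocyte_3, 110.1 in TAM_C1q and 106 in Infl_Mono, with overlapping intervals. In CTRL, Infl_Mono exceeded C1q macrophages (TAM_C1q) by a log2 ratio of 3.31 for Ddx58, 3.41 for Ifih1, 3.58 for Zbp1 and 0.48 for Tlr7. The same contrast in COX2i + 5-AZA was 1.93, 2.28, 2.76 and -0.05 for those genes. The few Infl_Mono cells of CTRL tumours stood well above CTRL macrophages for the first 3 of these genes. In IRF3/7 the classes lay closer together: monocytes exceeded macrophages by 0.27 for Ddx58 and 0.55 for Zbp1 on the log2 scale, against 3.10 and 3.56 in CTRL. The IRF3/7 macrophages were mostly the TAM_H2Ab1 class (385 cells, 19 in CTRL), in which Zbp1 stood at 1065 CPM and Ifih1 at 452 CPM.

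Tlr3 stood highest in a dendritic class. In conventional type 1 dendritic cells (cDC1), which take up dying cells and are known for high TLR3, it stood at 575 CPM (95% interval 517 to 638) in COX2i and 579 CPM (95% interval 511 to 654) in COX2i + 5-AZA. In the libraries with fewer than 50 cDC1 it was 619 CPM (95% interval 477 to 791) in CTRL (16 cells) and 505 CPM (95% interval 410.5 to 615) in IRF3/7 (38 cells), and the 4 intervals overlapped. Summed over libraries, cDC1 held 569.9 CPM (95% interval 531 to 611), the next class, TAM_H2Ab1, 71.3 CPM (95% interval 65.1 to 78.0), and mast cells no UMI. In the same cells Ddx58 was at its lowest of all classes, 12.3 CPM (95% interval 7.17 to 19.7), and Tlr7 likewise, 3.62 CPM (95% interval 1.18 to 8.45). The cDC1 class carried its markers Xcr1, Clec9a and Wdfy4 at a summed 2202 CPM in COX2i and 2202 CPM in COX2i + 5-AZA.

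Aim2 stood highest in NK cells, the innate lymphocytes of these mice, at 105 CPM (95% interval 95.8 to 116), when UMIs were summed over libraries, then in cDC2 at 87.9 CPM (95% interval 81.8 to 94.3), which lay below NK cells beyond the intervals. The intervals of cDC2 and cDC1, of cDC1 and Monocyte_3, and of Monocyte_3 and Infl_Mono overlapped. In IRF3/7 alone Aim2 stood at 121 CPM (95% interval 103 to 142) in cDC2 and 110.0 CPM (95% interval 95.9 to 125) in NK cells, and CTRL held 11 NK cells. It was lowest in Myofibrobl at 7.75 CPM (95% interval 6.77 to 8.84). Mavs had the narrowest span, 3.14-fold between TAM_C1q at 57.9 CPM (95% interval 55.8 to 59.9) and mast cells at 18.4 CPM (95% interval 9.51 to 32.2); Infl_Mono, where most other members peaked, was near the bottom at 19.9 CPM (95% interval 18.0 to 22.0). Zbp1 and Ifi204 had wide spans, 33.5-fold and 129-fold from Infl_Mono down to mast cells, where they had 27 and 4 UMIs. Of the 15 pairs of neighbouring classes, the intervals overlapped in 13 for Mavs, Tlr3 and Aim2, in 12 for Ddx58, Ifih1, Tlr7 and Eif2ak2, in 9 for Ifi204, in 7 for Dhx58 and in 5 for Zbp1. Levels of different genes are not compared, since genes are covered by different probes.

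**Figure D3:**
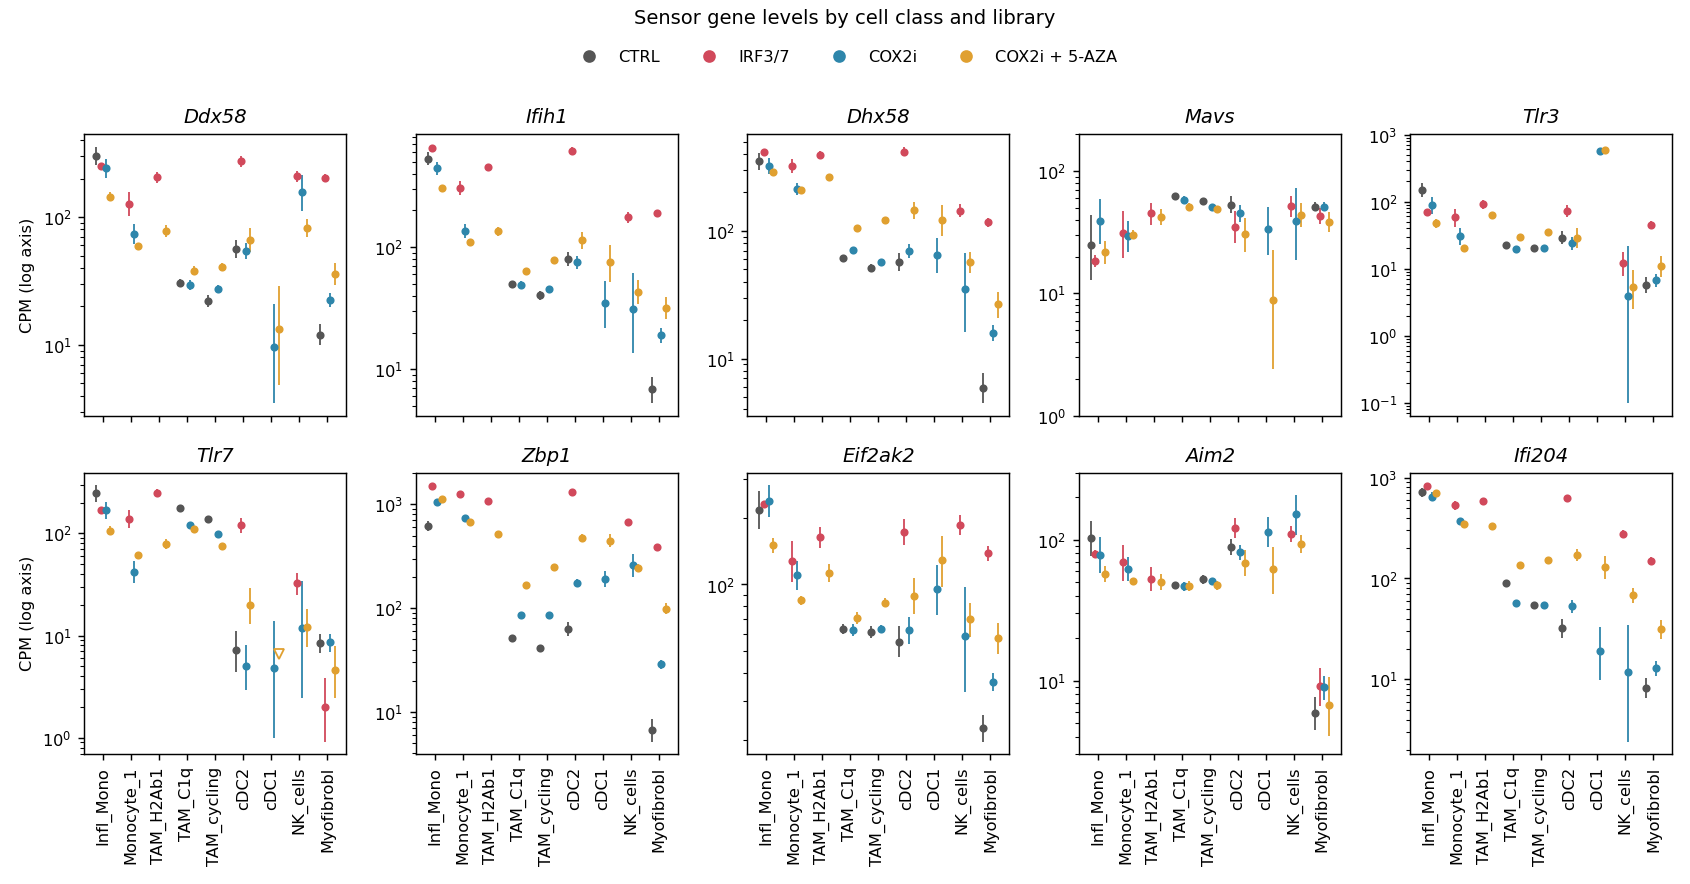
CPM (log axis, scaled per gene) of each sensor gene in 9 cell classes; each point is 1 library with at least 50 cells of that class, bars are exact 95% Poisson intervals and the open triangle marks 0 UMIs, drawn at 3 UMIs. Tlr3 stands at 575 and 579 CPM in cDC1, Tlr7 is under 20 CPM in cDC2, cDC1 and Myofibrobl except for cDC2 of IRF3/7, and Myofibrobl of IRF3/7 lies above the other libraries for 8 genes, though for Aim2 with overlapping intervals.

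Of the 3 classes with 50 cells in IRF3/7 and in CTRL (Infl_Mono, cDC2 and Myofibrobl), the non-immune Myofibrobl class held the highest log2 ratio for Ddx58, Ifih1, Dhx58, Tlr3, Zbp1, Eif2ak2 and Aim2. Of the 10 members 7 were at least 2-fold higher (172 against 554 cells), where 6.07% of all genes tested were; the members' median log2 ratio was 3.53 and that of all genes -0.29. Zbp1 stood at 6.75 CPM in CTRL, 386 in IRF3/7, 28.7 in COX2i and 99.1 in COX2i + 5-AZA in this class, and IRF3/7 was 57.2-fold above CTRL, a log2 ratio of 5.84 (95% interval 5.48 to 6.22). Ifih1 stood at 6.85 CPM in CTRL, 189.8 in IRF3/7, 19.0 in COX2i and 32.0 in COX2i + 5-AZA, a log2 ratio of 4.79 (95% interval 4.43 to 5.18). Ddx58 stood at 12.0 CPM in CTRL, 204 in IRF3/7, 22.6 in COX2i and 35.9 in COX2i + 5-AZA, a log2 ratio of 4.08 (95% interval 3.80 to 4.37). For all 3 genes the order of the libraries was the same, from CTRL up through COX2i and COX2i + 5-AZA to IRF3/7. Dhx58, Ifi204, Tlr3 and Eif2ak2 had log2 ratios of 4.30, 4.20, 2.97 and 2.62 for IRF3/7 over CTRL. Mavs stood near the median gene, at -0.25, and Tlr7 was lower in IRF3/7, at -2.07 (95% interval -3.25 to -1.07), on 9 UMIs in IRF3/7.

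Levels of immune marker genes in this class are set beside these values. In IRF3/7, the monocyte gene Plac8 stood in Myofibrobl at 2.67% of its Infl_Mono level and Tlr7 at 1.20%. Against the same reference Ddx58 stood at 81.6%, Tlr3 at 64.7%, Eif2ak2 at 59.9%, Ifih1 at 29.4%, Dhx58 at 27.9%, Zbp1 at 25.8% and Ifi204 at 18.3%. In COX2i + 5-AZA Plac8 was at 1.87%, against 24.8% for Ddx58, 10.4% for Ifih1, 8.81% for Zbp1 and 4.46% for Ifi204. The summed fibroblast markers Col1a1, Col1a2, Dcn and Pdgfra in Myofibrobl were 7027 CPM in CTRL and 4544 CPM in IRF3/7. Of these, Col1a2 went from 4772 to 1983 and Col1a1 from 1845 to 1691, while Dcn rose from 118 to 351 and Pdgfra from 291 to 520. The summed macrophage markers stood at 2483 CPM in CTRL and 250.2 CPM in IRF3/7. Other immune markers ran the other way: Plac8 stood at 9.86 CPM in CTRL and 212 in IRF3/7, the summed neutrophil markers at 207 and 332 CPM (S100a8 higher at 295 against 78.3, the other 3 lower), and Bst2, a plasmacytoid dendritic cell marker that interferon also induces, at 126 and 2895 CPM, while the other 2 plasmacytoid markers, Siglech and Ccr9, had no UMI in IRF3/7; the part of other cells in the members' values was not tested. Of 6 melanoma markers only Pmel and S100b were in the table, at a summed 0.415 CPM in CTRL and 1.56 CPM in IRF3/7. After every cell was thinned to 2000 UMIs, 49.4% (95% interval 41.7 to 57.2) of IRF3/7 Myofibrobl cells held a Zbp1 UMI against 1.48% (95% interval 0.641 to 2.89) of CTRL cells, and 95.9% against 1.66% an Irf7 UMI. Unthinned, the shares with Zbp1 were 88.4% and 9.21%, at median depths of 20862 and 15008 UMIs per cell; in IRF3/7 the share for Tlr7, a gene of immune cells, was 1.76% after thinning. Fewer than 50 of the 172 IRF3/7 Myofibrobl cells remained when the 5% of cells with the most UMIs were left out, and the part of doublets was not tested.

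In type 2 conventional dendritic cells (cDC2, 645 cells in CTRL and 390 in IRF3/7), which prime helper T cells, 8 of the 10 members were at least 2-fold higher in IRF3/7, against 6.01% of genes tested. Tlr7 was the member in which this class stood apart, at 7.18 CPM in CTRL, 119.7 in IRF3/7, 5.07 in COX2i and 19.8 in COX2i + 5-AZA. Its log2 ratio of 4.06 (95% interval 3.38 to 4.81) in cDC2 stood beside 0.38 in monocytes and macrophages, and the difference between the classes was not tested. Ifi204 in cDC2 stood at 32.3 CPM in CTRL, 634 in IRF3/7, 53.1 in COX2i and 170.0 in COX2i + 5-AZA, a log2 ratio of 4.29 (95% interval 3.98 to 4.62). Zbp1 (4.36), Ifih1 (2.94), Dhx58 (2.87), Ddx58 (2.28), Eif2ak2 (1.65) and Tlr3 (1.33) were also higher on the log2 scale, while Aim2 (0.45) and Mavs (-0.60) stayed within 2-fold. A monocyte marker moved with these values: Plac8 in cDC2 stood at 186 CPM in CTRL and 5242 in IRF3/7, or 66.0% of its Infl_Mono level there, where Tlr7 was at 71.3%. Of the 3 cDC2 markers, Cd209a went from 334 to 83.9 CPM, H2-Eb1 from 22743 to 19836 and Klrb1b from 785 to 846. Of the plasmacytoid dendritic cell markers, genes of a cell type known for TLR7, Siglech went from 1.08 to 79.3 CPM, Ccr9 from 2.15 to 29.7 and Bst2 from 348 to 2865; the part of these shifts in the members' values was not tested.

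The next comparisons concern the drugs, and they share libraries: COX2i and COX2i + 5-AZA were each set against the same CTRL, and against each other. In monocytes and macrophages 1 of the 10 members was at least 2-fold higher in COX2i than in CTRL, against 1.93% of genes tested (all cells, 1 against 2.45%). That member was Zbp1, with a log2 ratio of 1.04 (95% interval 0.98 to 1.10). With the class mix held the same the count was 0, as it was with cells of more than 2000 genes. The others lay between -0.49 for Tlr7 and 0.27 for Dhx58 on the log2 scale. Zbp1 was higher in COX2i within each of the 7 classes that reached 50 cells in both libraries, with log2 ratios from 0.73 in TAM_C1q to 2.58 in Ctsk_Macro and every interval above 0. Tlr7 was lower in 5 of the 7 classes with the interval below 0, among them TAM_C1q, where it stood at 176 CPM in CTRL and 122 in COX2i with a log2 ratio of -0.53 (95% interval -0.61 to -0.45). Markers moved within the classes as well: from CTRL to COX2i the summed macrophage markers went from 58846 to 29262 CPM in TAM_C1q and from 47852 to 15828 in Infl_Mono, and Plac8 from 8.95 to 24.1 and from 1931 to 4442 CPM; their part was not tested.

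In COX2i + 5-AZA, 4 of the 10 members in monocytes and macrophages were at least 2-fold above CTRL, against 5.65% of genes tested, and 4 over all cells, against 6.49%. The median gene stood at -0.16 in monocytes and macrophages. With the class mix held the same the count over CTRL was 1 and the ratio of Ifih1 turned to -0.030. That setting covers Infl_Mono, TAM_C1q, TAM_Spp1, TAM_cycling and Macro. Among the classes it leaves out are Monocyte_1 (3640 cells, 44 in CTRL) and TAM_H2Ab1 (419 and 19). The log2 ratio was 2.87 (95% interval 2.82 to 2.92) for Zbp1. The other members past 2-fold over CTRL were Ifi204 (1.57), Dhx58 (1.47) and Ifih1 (1.01), with Ddx58 just under 2-fold at 0.90 and Tlr7 lowest at -0.78. Against COX2i alone, 3 members were at least 2-fold higher (Zbp1, Ifi204 and Dhx58), against 6.16% of genes tested, and 3 over all cells, against 6.85%. Their log2 ratios were 1.83, 1.77 and 1.20, and with the class mix held the same the count was 0. COX2i + 5-AZA held more monocytes than either other library of these comparisons, and values within classes are therefore given. Within Monocyte_1 (3640 against 394 cells) log2 ratios over COX2i ran from -0.59 for Tlr3 to 0.54 for Tlr7, and Zbp1 stood at 675 against 740.2 CPM. The members' median log2 ratio within macrophage classes was 0.33 over CTRL and 0.38 over COX2i in TAM_C1q, 0.0012 and -0.12 in TAM_Spp1, and 0.83 and 0.68 in cycling macrophages (TAM_cycling). Within TAM_cycling, the class of these 3 with the highest medians, Zbp1 stood at 41.0 CPM in CTRL, 85.5 in COX2i and 249 in COX2i + 5-AZA, log2 ratios of 2.60 over CTRL and 1.54 over COX2i. Ifi204 in the same cells stood at 54.9, 54.3 and 153 CPM, and Dhx58 at 51.5, 57.0 and 122 CPM. The markers of TAM_cycling differed too. The summed macrophage markers stood at 40501, 22541 and 22309 CPM in the same order, the summed cDC2 markers at 703, 1035 and 2183 and Plac8 at 9.46, 46.2 and 258. In TAM_C1q the summed macrophage markers stood at 58846, 29262 and 31889 CPM and Plac8 at 8.95, 24.1 and 142. In TAM_Spp1 they stood at 14746, 10019 and 8054 CPM and at 196, 346 and 475. The part of these markers was not tested.

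In Infl_Mono, COX2i + 5-AZA stood below CTRL: 3 of the 10 members were at least 2-fold lower, against 10.8% of genes tested. They were Tlr3, with a log2 ratio of -1.65 (95% interval -2.05 to -1.23), Tlr7 at -1.21 (95% interval -1.51 to -0.91) and Ddx58 at -1.06 (95% interval -1.32 to -0.79), on 764 and 93 cells. Zbp1 ran the other way in these cells, at 0.87. Markers of other cells moved with these values, from CTRL to COX2i + 5-AZA: the summed macrophage markers from 47852 to 6053 CPM, the summed neutrophil markers from 304 to 4911 CPM and Plac8 from 1931 to 6572 CPM; their part was not tested. In cDC2, 1 member was at least 2-fold higher in COX2i than in CTRL (Zbp1, 1.46; background 3.52%; 2 members with cells of more than 2000 genes), 4 in COX2i + 5-AZA over CTRL (background 4.4%) and 4 in COX2i + 5-AZA over COX2i (background 3.44%). Those 4 were Zbp1, Ifi204, Tlr7 and Dhx58 in both cases, with log2 ratios over CTRL of 2.91, 2.40, 1.46 and 1.34. Plac8 in the class moved beside them from 186 in CTRL and 424 in COX2i to 1933 CPM. In the same order Siglech stood at 1.08, 6.86 and 23.6, Ccr9 at 2.15, 2.69 and 10.7 and Bst2 at 348, 475 and 861. The cDC2 markers Cd209a, H2-Eb1 and Klrb1b stood at 334, 581 and 151, at 22743, 21279 and 18117 and at 785, 1255 and 1012 CPM. The part of these markers was not tested. In Myofibrobl, 3 members were at least 2-fold higher in COX2i than in CTRL, Zbp1 (2.09), Ifih1 (1.47) and Dhx58 (1.43), against 4.54% of genes. In COX2i + 5-AZA over CTRL 6 were, adding Ifi204 (1.95), Ddx58 (1.58) and Eif2ak2 (1.34), against 5.53%, and over COX2i 2, Zbp1 (1.79) and Ifi204 (1.29), against 2.98%; this last count was 6 without the 5% of cells with the most UMIs and 4 with every cell weighed the same. In Myofibrobl of CTRL, COX2i and COX2i + 5-AZA the summed fibroblast markers stood at 7027, 13206 and 12033 CPM and the endothelial markers Pecam1 and Cdh5 at 12.3, 63.0 and 58.3. The macrophage markers stood at 2483, 1892 and 967 and Plac8 at 9.86, 27.8 and 123 CPM. From CTRL to COX2i the macrophage sum fell through Apoe (1663 to 776 CPM). C1qa (388 to 481), C1qb (277 to 424) and Mrc1 (154 to 211) rose. The fibroblast sum rose there through Col1a1 and Col1a2, while Dcn went from 118 to 94.1 CPM and Pdgfra from 291 to 289. The part of these markers was not tested.

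Smaller classes are given by their values. In Ctsk_Macro (157 cells in COX2i and 380 in CTRL) Ddx58 stood at 11.8 CPM (95% interval 8.61 to 15.8) in CTRL and 52.2 CPM (95% interval 41.7 to 64.6) in COX2i, a log2 ratio of 2.15, beside 2.58 for Zbp1, 1.25 for Dhx58, 1.12 for Ifih1 and -1.06 for Tlr7. The summed macrophage markers in these cells stood at 26853 CPM in CTRL and 9259.9 in COX2i, and their part was not tested. The RIG-I gene was not 2-fold different in the other macrophage classes of this comparison. In neutrophils (196 cells in COX2i + 5-AZA and 65 in CTRL) Zbp1 had a log2 ratio of 3.63 (95% interval 2.97 to 4.37), Ifi204 of 1.68 and Mavs of -1.75 (95% interval -3.16 to -0.41), beside -0.36 for the median gene. The cells of this class differed between the libraries in their markers: the summed neutrophil markers stood at 24460.5 CPM in CTRL and 89640.0 in COX2i + 5-AZA, and the summed macrophage markers at 33037 and 4294 CPM and Plac8 at 317 and 2257 CPM; their part in the values was not tested. In NK cells (437 cells in COX2i + 5-AZA and 50 in COX2i) Ifi204 had a log2 ratio of 2.53 (95% interval 0.95 to 4.83) and Ddx58 of -0.92 (95% interval -1.43 to -0.38), while Zbp1 lay at -0.09. From COX2i to COX2i + 5-AZA the NK markers Ncr1, Nkg7 and Prf1 in these cells went from a summed 3147 to 5731 CPM, the macrophage markers from 1705 to 3454 and Plac8 from 1027 to 1649 CPM; their part was not tested. In cDC1 (60 and 79 cells) Ifi204 had a log2 ratio of 2.77 (95% interval 1.86 to 3.81) between the same libraries and Mavs of -1.92 (95% interval -3.92 to -0.35); Plac8 went with them from 928 in COX2i to 1549.9 CPM, the summed neutrophil markers from 15.9 to 88.4 and the macrophage markers from 1929 to 891, and their part was not tested. Mavs was lower in COX2i + 5-AZA than in CTRL with the interval below 0 in 6 of 8 classes, and than in COX2i in 6 of 9. Aim2 had no class with the interval above 0 in either of those comparisons, and 4 of 8 and 3 of 9 below 0.

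Shares of cells with a UMI of a member were compared at equal depth. After thinning to 2000 UMIs, 90.8% (95% interval 89.9 to 91.7) of IRF3/7 monocytes and macrophages held a Zbp1 UMI, 52.6% (95% interval 51.5 to 53.6) of COX2i + 5-AZA, 19.5% (95% interval 18.6 to 20.4) of COX2i and 10.4% (95% interval 9.72 to 11.1) of CTRL cells. For Ifih1 the shares were 62.2%, 17.7%, 10.7% and 9.32% in the same order, and for Mavs 4.01%, 6.39%, 9.57% and 9.39%. Unthinned, the Zbp1 shares were 94.4%, 78.5%, 42.2% and 24.9%. A cell of this compartment held UMIs of 4.05 different members on average in IRF3/7, 1.95 in COX2i + 5-AZA, 1.13 in COX2i and 1.05 in CTRL, and 85.7% against 9.48% of IRF3/7 and CTRL cells held 3 or more. In Infl_Mono the averages were 4.13 in IRF3/7 and 3.83 in CTRL. Thinning left out 19.0% of IRF3/7 cells and 3.13% of CTRL cells. As a reference for UMIs in cells of another type, Tlr7 after thinning was found in 1.66% of CTRL and 1.76% of IRF3/7 Myofibrobl cells, against 20.1% and 26.8% of monocytes and macrophages, whose median depth was 6260 and 3148 UMIs.

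The classes that supplied the UMIs of a member differed between libraries. In CTRL, TAM_C1q held 37.5% of all Ddx58 UMIs, and TAM_cycling 18.3%. In IRF3/7, Infl_Mono held 60.8% of them, Myofibrobl 15.1% and NK cells 6.93%. In COX2i + 5-AZA, Monocyte_1 was first at 29.7%, before TAM_cycling at 17.6% and Infl_Mono at 13.5%. Ifih1 gave the same leading class in each of these libraries. Infl_Mono held 73.2% of Ifih1 UMIs in IRF3/7, TAM_C1q 37.9% in CTRL and Monocyte_1 31.2% in COX2i + 5-AZA.

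Over 40 units of 1 class in 1 library with at least 50 cells each, the pattern of log2(CPM + 1) was compared between genes by Pearson's r, as a description of points that share libraries, depth and classes. Among members, Ifih1 and Dhx58 were the most alike (r = 0.94), followed by Dhx58 and Ifi204 (r = 0.92), while Mavs and Zbp1 were the most opposed (r = -0.55). The 3 genes most like each member, among 11473 compared, were Ddx60 (r = 0.90), Ifi206 (r = 0.89) and Xaf1 (r = 0.88) for Ddx58; Rnf213 (r = 0.96), Xaf1 (r = 0.95) and Rsad2 (r = 0.95) for Ifih1; and Tor1aip1 (r = 0.94), Parp14 (r = 0.94) and Ifih1 (r = 0.94) for Dhx58. For Zbp1 they were Ifi47 (r = 0.96), Dtx3l (r = 0.96) and Parp9 (r = 0.95), for Eif2ak2 Oasl1 (r = 0.92), Usp18 (r = 0.92) and Rnf213 (r = 0.91), for Ifi204 H2-T24 (r = 0.93), Oas1a (r = 0.93) and Dhx58 (r = 0.92), and for Tlr7 Ms4a6b (r = 0.91), Apobec1 (r = 0.89) and Tlr8 (r = 0.88). Those of Aim2 were Ikzf1 (r = 0.94), Exoc6 (r = 0.93) and Pik3cd (r = 0.92), those of Mavs Mzt2 (r = 0.86), BC052040 (r = 0.84) and Ppcs (r = 0.83), and those of Tlr3, with the lowest r of the members, Rab7b (r = 0.78), Atp6v0a2 (r = 0.77) and Rnf144b (r = 0.76).

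The other genes of these pathways were counted from a list of names. In monocytes and macrophages, 30 of 57 tested were at least 2-fold higher in IRF3/7 than in CTRL and 1 at least 2-fold lower. The counts higher were 0 of 56 in COX2i, 16 of 57 in COX2i + 5-AZA over CTRL and 14 of 57 over COX2i, beside the backgrounds given above. The compartments hold different cells. Unlike the members, these genes were not counted within Infl_Mono or with the class mix held the same. All 10 tested cytosolic DNA and PYHIN genes were higher in IRF3/7, led by Ifi214 (7.02), Ifi208 (6.62) and Ifi206 (5.32) on the log2 scale and with the DNA sensor Cgas lowest (1.27). In COX2i + 5-AZA over CTRL 8 of 10 were, with Cgas at 0.14. PYHIN genes are near relatives, and probes that bind more than a single relative could not be checked here. Of the adaptors, kinases and factors 5 of 11 were higher in IRF3/7: Irf7 (5.52), the TLR7 adaptor Myd88 (1.58), the TLR3 adaptor Ticam1 (1.09), Irf5 (1.08) and Tmem173, which encodes STING (1.01). The gene of the endosomal receptor chaperone, Unc93b1 (0.21), Irf3 (0.05) and Traf6 (-0.09) stayed within 2-fold.

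Among RIG-I-like receptor cofactors 4 of 9 were higher in IRF3/7, Ddx60 (3.44), the RIG-I ubiquitin ligase Trim25 (1.94), Zc3hav1 (1.73) and Rnf135 (1.19), and Dhx9 (-0.89) and Prkra (-0.90) were lowest. Of the other endosomal receptors and their helpers, the DNA receptor Tlr9 alone was higher (3.23), with Tlr8 at 0.21 and Tlr13 at 0.10. Inflammasome genes were higher in 5 of 7, led by Casp4 (3.36), Il1b (2.11) and Il18 (1.89), and the adaptor Pycard was lowest (0.54). The necroptosis effector Mlkl (2.08) was the ZBP1 partner past 2-fold, beside Ripk3 at 0.61. Samhd1 (2.91), a nucleotide hydrolase, and Adar (2.05), which edits base-paired RNA, were higher, and Rnaseh2b (-1.45) was lower, where 32.2% of genes were. In the PKR pathway Ddit3 (1.31) and Ppp1r15a (1.28) were past 2-fold. In COX2i + 5-AZA over CTRL the genes past 2-fold outside the PYHIN group were Irf7 (2.71), Samhd1 (2.01), Casp4 (1.78), Mlkl (1.64), Il1b (1.52), Casp1 (1.32), Rnf125 (1.22) and Ripk3 (1.10). In Myofibrobl of IRF3/7 the list gave 19 of 55 higher, where 6.07% of all genes were, with Ddx60 at 5.02, Ifi208 at 6.60, Trim25 at 2.52 and Tlr13 at -2.05. In the same class it gave 10 of 56 higher in COX2i over CTRL, against 4.54% of genes. For COX2i + 5-AZA it gave 14 of 55 over CTRL, against 5.53%, and 8 of 56 over COX2i, against 2.98%. The interferon genes Ifnb1, Ifna2, Ifna4 and Ifna5 and the genes Ifi213, Trex1 and Dnase2a were not analysed here.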

How the data were processed

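The authors sorted CD45+ live cells from 3 pooled tumours per group, fixed them and prepared 4 multiplexed Chromium Flex libraries, which they processed with Cell Ranger 7.1.0 (probe set for mm10) and filtered on detected genes and on mitochondrial and ribosomal reads; they then named the cell classes from clusters. The deposited count matrix holds whole-number UMI counts per gene and cell, not normalized, and a cell table with the library, the deposited total count and the class of each cell. The UMI sum equalled that total in all 34447 cells.

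Library names in the cell table were matched to samples by their titles. UMIs were summed over the cells of a class or compartment and divided by their total UMIs (CPM, per 1000000). Monocytes and macrophages comprise Infl_Mono, Monocyte_1, Monocyte_3, TAM_C1q, TAM_Spp1, TAM_cycling, TAM_H2Ab1, Ctsk_Macro and Macro. Levels carry exact Poisson and ratios exact conditional 95% intervals, and shares of cells exact Clopper-Pearson intervals; a count of 0 was set to 3 counts. With 1 library per group no test between groups was made. A gene counted as higher or lower past 2-fold, among genes that reached 20 UMIs over the pair of libraries; classes needed 50 cells in each. No doublet caller was run; cells with the most UMIs were left out as an alternative. Named genes were the members, the 3 most alike genes per member, and up to 3 highest and lowest genes of each group in a list of pathway genes; other pathway genes were named after their values were seen. The members and lists were chosen with earlier results of these data known. Some marker values are not reported here. The ratio code was tested on simulated data. Python 3.11.15, numpy 2.4.6, scipy 1.17.1 and pandas 2.3.3 were used. Alternatives were another scaling, deeper cells, cells without the top 5% of UMIs, each cell weighing the same, thinning to 2000 UMIs, a class mix held the same, and other minimums of UMIs.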

Additional observations from a re-analysis of the deposited data

Results flagged for a closer look

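Some members were at least 2-fold higher in one class and at least 2-fold lower in another under the same comparison, with both counting intervals clear of 0. With 1 library per group, the difference between the classes was not tested. For IRF3/7 against CTRL, Tlr3 had log2 ratios of 2.97 in Myofibrobl and 1.33 in cDC2 and -1.10 in Infl_Mono. Tlr7 had 4.06 in cDC2 and -2.07 in Myofibrobl.

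For COX2i + 5-AZA against CTRL, Ddx58 had log2 ratios of 1.58 in Myofibrobl, 1.24 in neutrophils (196 against 65 cells) and -1.06 in Infl_Mono. Tlr7 had 1.46 in cDC2, -1.62 in neutrophils and -1.21 in Infl_Mono. The CTRL arm of Infl_Mono held 93 cells in all of these values. From CTRL to COX2i + 5-AZA the summed macrophage markers moved from 33037 to 4294 CPM in neutrophils and from 47852 to 6053 CPM in Infl_Mono, and the summed neutrophil markers from 24460.5 to 89640.0 and from 304 to 4911 CPM. Their part in the values was not tested.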

How the results depend on the processing

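Holding the class mix the same was the setting that changed most. In monocytes and macrophages the number of members at least 2-fold higher became 1 for IRF3/7 against CTRL, 0 for COX2i against CTRL, 1 for COX2i + 5-AZA against CTRL and 0 for COX2i + 5-AZA against COX2i; for all cells together it became 1, 0, 1 and 0. For IRF3/7 this setting rests on Infl_Mono alone in the first case and on Infl_Mono, cDC2 and Myofibrobl in the second, because no other class had 50 cells in both libraries. For COX2i + 5-AZA against CTRL it leaves out Monocyte_1 and TAM_H2Ab1, among other classes under 50 cells in either library. Directions turned there for Ddx58 (-0.27), Tlr3 (-1.10; all cells -0.74), the members' median (-0.090) and, in COX2i + 5-AZA against CTRL, Ifih1 (-0.030), all as log2 ratios; Tlr7 (-0.55; all cells -0.34) and Aim2 (-0.38; all cells -0.20), under 2-fold in IRF3/7 to begin with, also changed sign. With cells of more than 2000 genes the COX2i count in monocytes and macrophages was 0 and in cDC2 2. For COX2i + 5-AZA against COX2i in Myofibrobl it was 6 without the 5% of cells with the most UMIs and 4 with every cell weighed the same, and in TAM_C1q 2 with median-of-ratios scaling; for COX2i against CTRL in Infl_Mono it was 1 with every cell weighed the same. The cause of these last changes was not tested. The share of all genes at least 2-fold higher became 15.8% for IRF3/7 in monocytes and macrophages with median-of-ratios scaling, which adds 0.539 to every log2 ratio, and 1.57% for COX2i over all cells with at least 200 UMIs. All other counts of members and shares of genes at least 2-fold higher stayed within 1.5 times under the alternatives run. Counts and shares at least 2-fold lower and the counts of the pathway list were not among the values compared. With median-of-ratios scaling Mavs, the member past 2-fold lower in IRF3/7 monocytes and macrophages, was under 2-fold. Thinning moved no member's log2 ratio in monocytes and macrophages by more than 0.25. Infl_Mono was not computed with cells of more than 2000 genes, nor Myofibrobl in 1 comparison without the 5% of cells with the most UMIs, for want of 50 cells. In CTRL alone NK cells and cDC1 were under 50 cells, and among the other classes Infl_Mono stood highest for Aim2 (103 CPM) and Tlr3 (149 CPM). Leaving out a replicate could not be run, and no paired analysis was possible because each group has a single library. The limits are those of 1 library per group: pooled tumours, the library and the treatment cannot be told apart, CTRL had 93 Infl_Mono cells, and IRF3/7 was the shallowest library.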

Other observations

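CTRL held 11 NK cells and is left out here. In NK cells Zbp1 stood at 682 CPM in IRF3/7 (568 cells), 259 in COX2i (50 cells) and 244 in COX2i + 5-AZA (437 cells), and Ddx58 at 209, 157 and 82.8 CPM. Ifi204 stood at 278, 11.8 and 68.0 CPM. Tlr3 in NK cells was at 11.9, 3.92 and 5.27 CPM. Markers of the class differed too: in the same order of libraries the summed NK markers stood at 7917, 3147 and 5731 CPM, the macrophage markers at 1011, 1705 and 3454 and Plac8 at 3374, 1027 and 1649 CPM; their part was not tested.

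In CCR7+ DC, the migrating dendritic cells, Zbp1 stood at 928 CPM in IRF3/7 (66 cells) and 274 in COX2i + 5-AZA (87 cells), Ifih1 at 438 and 122 CPM, and Dhx58 at 317 and 87.0 CPM. The markers of the class differed between the libraries. The summed CCR7+ DC markers Ccr7, Fscn1 and Ccl22 stood at 7805 CPM in IRF3/7 and 14121 in COX2i + 5-AZA. In the same order the macrophage markers stood at 414 and 2084 CPM and Plac8 at 2972 and 497. The plasmacytoid dendritic cell sum of 1928 and 619 CPM came from 1 marker, as 2 of the 3 had no UMI in each library. The part of these markers was not tested. Tlr3 had 1 UMI in the CCR7+ DC of all libraries together. In the TAM_H2Ab1 class, held by the same libraries (385 and 419 cells), Tlr7 stood at 248 and 78.7 CPM and Ifih1 at 452 and 135 CPM, whereas Mavs stood at 45.0 and 41.9 CPM. Beside these, Plac8 stood at 1188 and 364 CPM, the summed neutrophil markers at 378 and 126 and the macrophage markers at 34752 and 24577. The plasmacytoid dendritic cell sum of 3253 and 1665 CPM again came from 1 marker, as 2 of the 3 had no UMI in each library. The part of these markers was not tested.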
